A study of Homo sapiens with 2 samples.

Results

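The genes described here are 10 neighbours on chromosome band 6q21, from CDC40 to FYN, that surround CDK19 and METTL24. They are CDC40, METTL24, DDO, CDK19, AMD1, GTF3C6, RPF2, REV3L, TRAF3IP2 and FYN, 10 of the 40392 Entrez genes in the tables, and all 10 had a row in both. The stretch was chosen by the ratio of RHCG to mock RPKM of CDK19 and METTL24, which was already known to be high, so the values of RHCG against mock that follow are a description and no test was made on them. The question put to the data was how far along the locus the high ratios extend.

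RNA sequencing of ribosomal RNA-depleted total RNA was carried out on KYSE30, an established line from an esophageal squamous cell carcinoma. The RHCG library came from KYSE30 cells stably transfected with a vector expressing human RHCG, an ammonium transporter of the Rhesus glycoprotein family, and the mock library from a stable KYSE30 transfectant that received pIRES2-EGFP. The labels give 1 library per group and do not say whether the transfectants were single clones or pools, so each difference compares 2 libraries and has no replicate error. In these bulk libraries more cells carrying a transcript and more transcript per cell cannot be told apart.

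Values are RPKM, reads per kilobase of transcript scaled to library depth. The depth behind them was about 22100000 reads in the RHCG library and about 18900000 reads in the mock library. A log2 ratio below is log2 of RHCG over mock with 1 RPKM added to each value, and a gene is called higher or lower when this ratio is at least 1 or at most −1, a 2-fold rule. A gene listed at 0 may have been at 1 RPKM or less, without reads, or not counted, so genes listed at 0 in both libraries have no ratio and are not called unexpressed. RHCG itself was at 413 RPKM in the RHCG library and listed at 0 in the mock library, as the labels say. Of 10 squamous epithelium markers 8 were measured and 2, KRT5 and PKP1, were listed at 0 in both libraries. KRT6A, at 3.51 RPKM in the RHCG library and 38.8 RPKM in the mock library, and SOX2 were called lower. Of the 8 measured, 5 had a ratio below 0 and 3, KRT14, CDH1 and DSG3, had a ratio above 0. The summed level of the list was 162 RPKM in the RHCG library and 221 RPKM in the mock library, and the part of this difference in the locus values was not tested. All 5 endothelial and all 5 leukocyte markers were listed at 0 in both libraries, as were 4 of 6 fibroblast markers, and the other two fibroblast markers, COL1A1 and COL3A1, were at no more than 1.44 RPKM in either library.

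CDK19 is a cyclin-dependent kinase that, like its paralogue CDK8, joins cyclin C in the kinase module of Mediator, the complex that links transcription factors to RNA polymerase II. METTL24 belongs to the methyltransferase-like proteins and is poorly characterised. The genes around them have unrelated roles. CDC40 is a splicing factor of the second catalytic step, DDO oxidises D-aspartate, and AMD1 makes the decarboxylated S-adenosylmethionine used in polyamine synthesis. GTF3C6 is a subunit of the RNA polymerase III factor TFIIIC, and RPF2 helps load the 5S ribonucleoprotein into the large ribosomal subunit. REV3L is the catalytic subunit of the translesion polymerase zeta, TRAF3IP2 is the adaptor of IL-17 receptors, and FYN is a tyrosine kinase of the SRC family.

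The genes do not share a strand. In the GENCODE annotation METTL24, DDO, CDK19, REV3L, TRAF3IP2 and FYN lie on the minus strand, and CDC40, AMD1, GTF3C6 and RPF2 on the plus strand. The sequences shown are the 250 bases before the first listed RefSeq start of METTL24 and CDK19, the genes called higher, and of CDC40 and AMD1, the nearest measured gene on either side of them. They are read 5′ to 3′ on the gene's own strand in GRCh38.p14: METTL24 at chr6:110358350-110358599 (minus), CDK19 at chr6:110815856-110816105 (minus), CDC40 at chr6:110180177-110180426 (plus) and AMD1 at chr6:110874535-110874784 (plus). Capitals mark matches on either strand to any of 7 motifs, TATAAA for the TATA box, CCAAT for the CCAAT box, GGGCGG for the GC box, CACGTG for the E box, TGACTCA for the AP-1 site, TGACGTCA for the CRE and TGATGNAA for the C/EBP-ATF composite.
METTL24: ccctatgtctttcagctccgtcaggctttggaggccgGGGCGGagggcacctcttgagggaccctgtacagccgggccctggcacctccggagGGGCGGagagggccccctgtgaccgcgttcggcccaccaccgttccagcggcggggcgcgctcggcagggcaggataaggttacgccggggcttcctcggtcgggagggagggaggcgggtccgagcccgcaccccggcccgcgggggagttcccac
CDK19: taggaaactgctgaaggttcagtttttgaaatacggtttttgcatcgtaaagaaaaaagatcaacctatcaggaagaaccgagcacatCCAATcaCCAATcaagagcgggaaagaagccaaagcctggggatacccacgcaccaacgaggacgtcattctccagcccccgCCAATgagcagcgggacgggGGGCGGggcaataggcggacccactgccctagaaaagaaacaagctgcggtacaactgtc
CDC40: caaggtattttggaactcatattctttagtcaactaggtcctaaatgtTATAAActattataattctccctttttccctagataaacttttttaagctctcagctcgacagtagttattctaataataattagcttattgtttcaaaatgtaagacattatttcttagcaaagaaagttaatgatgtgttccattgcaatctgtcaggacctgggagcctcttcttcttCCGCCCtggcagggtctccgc
AMD1: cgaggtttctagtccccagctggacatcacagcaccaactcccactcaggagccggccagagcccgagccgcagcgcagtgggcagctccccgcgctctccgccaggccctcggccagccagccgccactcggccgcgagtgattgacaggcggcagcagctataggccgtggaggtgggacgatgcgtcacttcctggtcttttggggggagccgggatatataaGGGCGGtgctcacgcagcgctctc

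The promoter windows of the pair called higher differed in base composition and in motif matches. The METTL24 window was 73.6% G and C with 25 CpG dinucleotides and held 2 GC boxes. The CDK19 window was 52.0% G and C with 13 CpG and held 3 CCAAT boxes and 1 GC box. Between them these windows bracketed the median of 62.4% G and C over 15843 windows of protein-coding genes. The AMD1 window was 67.2% G and C with 1 GC box, and the CDC40 window was 36.0% G and C with 1 TATA box and 1 GC box. No match overlapped another in the 4 windows. A GC box stood in 7 of the 9 windows of these genes held in the RefSeq table and in 56.0% of all 15843 windows, and a CCAAT box in 5 of 9 and in 34.5% of all. None of the 9 held an AP-1 site, a CRE or the C/EBP-ATF composite, which 3.17%, 2.32% and 2.21% of all windows hold. A match is a string of letters only and says nothing of binding. RPF2 was not among the windows.

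CDK19 and METTL24 were called higher, and the other measured genes of the 10 lay within 1.5-fold. Of the 8 genes with a value above 0, 2 were called higher, beside 2.57% of 11433 protein-coding genes measured and 1.77% of 620 on chromosome 6. None of the 8 was called lower, beside 3.28% and 6.29%. Since CDK19 and METTL24 chose the stretch, these counts are not read against the background.

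CDK19 stood at 37.3 RPKM in the RHCG library and at 7.13 RPKM in the mock library. This is a 5.24-fold difference (log2 ratio 2.24), and the approximate read numbers, 6174 and 1011, gave a 95% counting interval of 4.90 to 5.61-fold. CDK19 ranked 1945 by level among the 10968 protein-coding genes listed above 0 in the RHCG library and 6791 among the 11201 in the mock library. Its log2 ratio ranked 14 among the protein-coding genes. No stretch of its longest transcript of 100 bases or more matched a transcript of another gene at 95% identity or above, CDK8 included.

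METTL24 stood at 13.9 RPKM in the RHCG library and at 1.73 RPKM in the mock library. The plain ratio was 8.04-fold, with a counting interval of 6.12 to 10.7-fold, and the log2 ratio with 1 RPKM added was 2.45. About 543 reads lay behind the RHCG value and about 58 behind the mock value, so the mock level, with a counting interval of 1.31 to 2.23 RPKM, was close to the lowest value the tables can show. METTL24 ranked 4730 by level in the RHCG library and 10355 in the mock library. Its ratio was the second on chromosome 6, just ahead of CDK19.

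**Figure D1:**
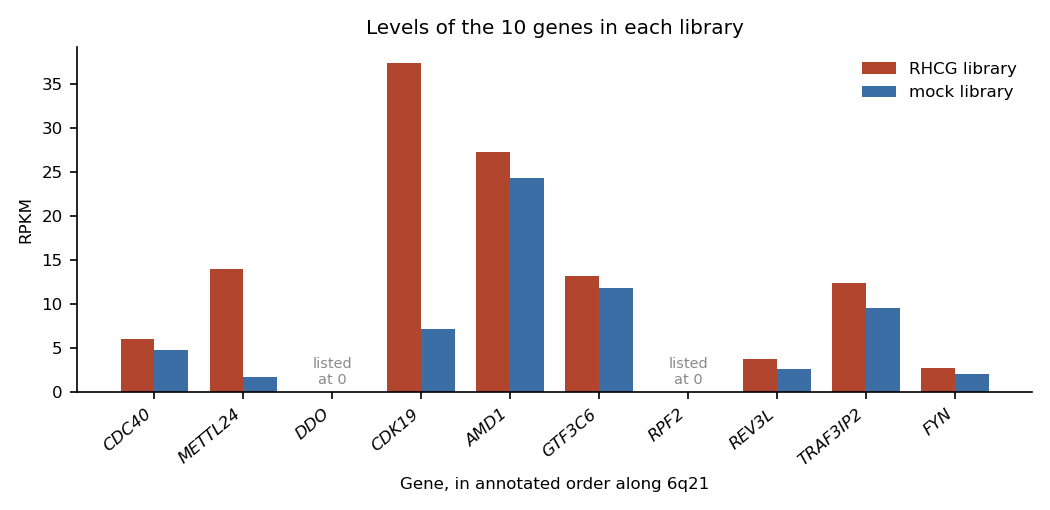
RPKM of the 10 genes in the RHCG library (left bar of each pair) and the mock library (right bar), 1 library each, with no error bars because there are no replicates. CDK19 (37.3 against 7.13) and METTL24 (13.9 against 1.73) stand apart. AMD1 (27.2 against 24.3) and the other measured genes are higher in the RHCG library by less than 1.5-fold, REV3L the most at 1.42-fold. DDO and RPF2 are listed at 0 in both libraries.

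Between METTL24 and CDK19 the annotation places DDO and the organic cation transporter gene SLC22A16. Both were listed at 0 in both libraries, so no ratio exists between the pair called higher and it is not known whether the high ratios are continuous there. The step between the ratios of METTL24 and CDK19, which are next to each other among measured genes, was 0.21 on the log2 scale.

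The high ratios ended before the nearest measured gene on either side. CDC40, before METTL24, was at 5.94 RPKM in the RHCG library and 4.79 RPKM in the mock library, a 1.24-fold difference with a counting interval of 1.11 to 1.39 (log2 ratio 0.26). AMD1, which follows CDK19 on the opposite strand, was at 27.2 and 24.3 RPKM in the RHCG and mock libraries, a 1.12-fold difference with an interval of 1.07 to 1.17 (log2 ratio 0.16). The RefSeq spans of CDK19 and AMD1 overlap head to head, but no exon of one overlaps an exon of the other in GENCODE. Each gene has 3 listed starts. The windows shown above take the first start of each and lie apart, so they are not a head-to-head pair.

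The drop in log2 ratio was 2.19 between METTL24 and CDC40 and 2.08 between CDK19 and AMD1. Across the genome the median step between neighbouring measured protein-coding genes was 0.39, and 121 of 11410 such pairs (1.06%) had a step of at least 2. Pairs of neighbours both called higher were 19 of 11410 (0.167%), in libraries where 2.57% of protein-coding genes were called higher. Of 294 protein-coding genes called higher, 36 (12.2%) had a nearest measured neighbour that was called higher too, CDK19 and METTL24 among them. Since CDK19 and METTL24 were picked for their high ratios, that choice made large steps to neighbours with low ratios likely. The shares describe the 2 libraries, are not a test and do not show that these steps are rare.

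**Figure D2:**
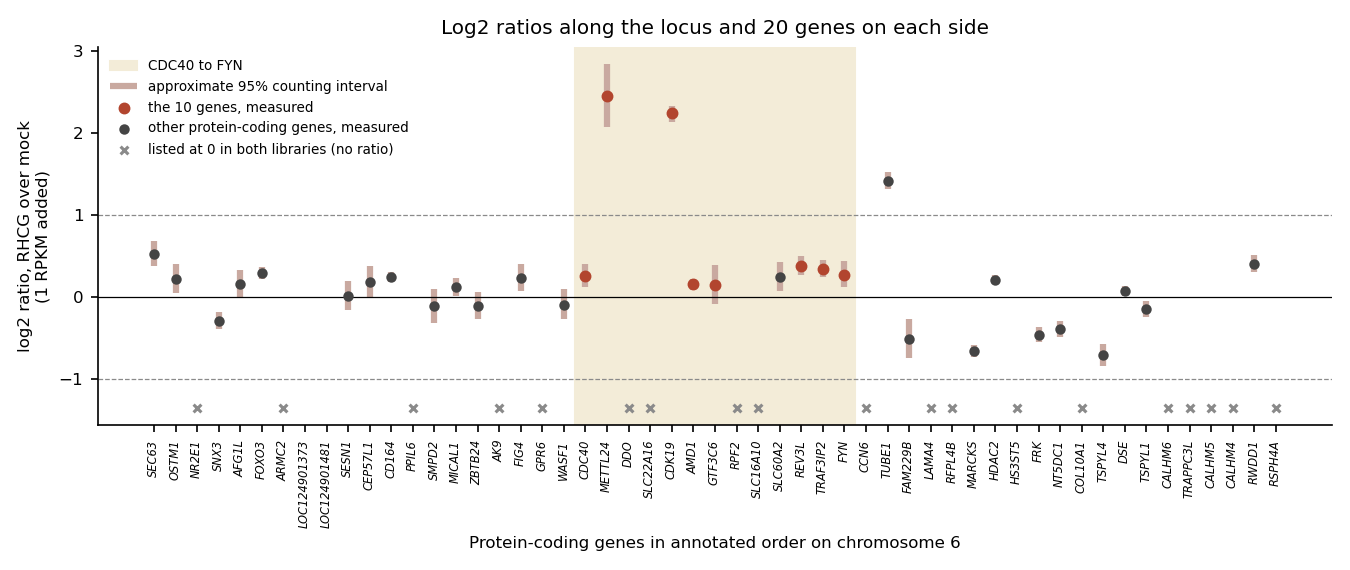
Log2 ratio of RHCG over mock (1 RPKM added) for protein-coding genes in their annotated order on chromosome 6, from 20 before CDC40 to 20 after FYN. Points are measured genes, bars approximate 95% counting intervals, crosses genes listed at 0 in both libraries, and dashed lines the 2-fold rule; METTL24 (2.45) and CDK19 (2.24) stand above the line with CDC40 (0.26) and AMD1 (0.16) beside them, and TUBE1 (1.42) lies beyond FYN.

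Farther along the locus the ratios stayed small and on 1 side of 0. GTF3C6 was at 13.2 RPKM in the RHCG library and 11.8 RPKM in the mock library (1.12-fold). Its counting interval of 0.944 to 1.33-fold included 1, and 64.3% of its longest transcript matched a transcript annotated at another locus, so reads may be shared. REV3L was at 3.69 RPKM in the RHCG library and 2.60 RPKM in the mock library, a 1.42-fold difference (interval 1.28 to 1.57, log2 ratio 0.38). With a trend with GC content and length removed its log2 ratio was 0.24, below those of TRAF3IP2 (0.32) and FYN (0.26). Exons of REV3L overlap antisense genes over 693 bases, and the strand rule of the counting is not given in the sources used here.

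TRAF3IP2 was at 12.4 RPKM in the RHCG library and 9.50 RPKM in the mock library (1.30-fold, interval 1.21 to 1.40). Exons of TRAF3IP2 overlap an antisense gene over 123 bases, and 2.24% of its longest transcript matched transcripts of 7 other genes. FYN was at 2.65 RPKM in the RHCG library and 2.02 RPKM in the mock library (1.31-fold, interval 1.13 to 1.53). SLC60A2, a sugar transporter gene between RPF2 and REV3L that is not among the 10, was at 2.48 and 1.93 RPKM in the RHCG and mock libraries (log2 ratio 0.25). Every one of these genes was slightly above its mock value, and none came near 2-fold.

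RPF2 was listed at 0 in both libraries, as was SLC16A10, an aromatic amino acid transporter gene next to it. RPF2 is a ribosome assembly factor that growing cells need. Of its longest transcript 19.7% matches the pseudogene RPF2P1, and the part of this match in the value of 0 was not tested. A gene listed at 0 may have been at 1 RPKM or less, without reads or not counted, so the value is not taken as absence. Of 36 non-coding genes and pseudogenes annotated between CDC40 and FYN, 9 had a row in the tables and 0 were listed above 0.

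The order of the levels differed between the libraries because of the pair called higher. In the RHCG library CDK19 came first, then AMD1, METTL24, GTF3C6, TRAF3IP2, CDC40, REV3L and FYN. The counting intervals of METTL24 (12.7 to 15.1 RPKM) and GTF3C6 (11.8 to 14.8 RPKM) overlapped there, and the level of TRAF3IP2, 12.4 RPKM, lay inside that of GTF3C6. In the mock library AMD1 came first, then GTF3C6, TRAF3IP2, CDK19, CDC40, REV3L, FYN and METTL24. FYN (1.79 to 2.27 RPKM) and METTL24 (1.31 to 2.23 RPKM) overlapped there, and the counting intervals of all other neighbours in that order were apart.

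**Figure D3:**
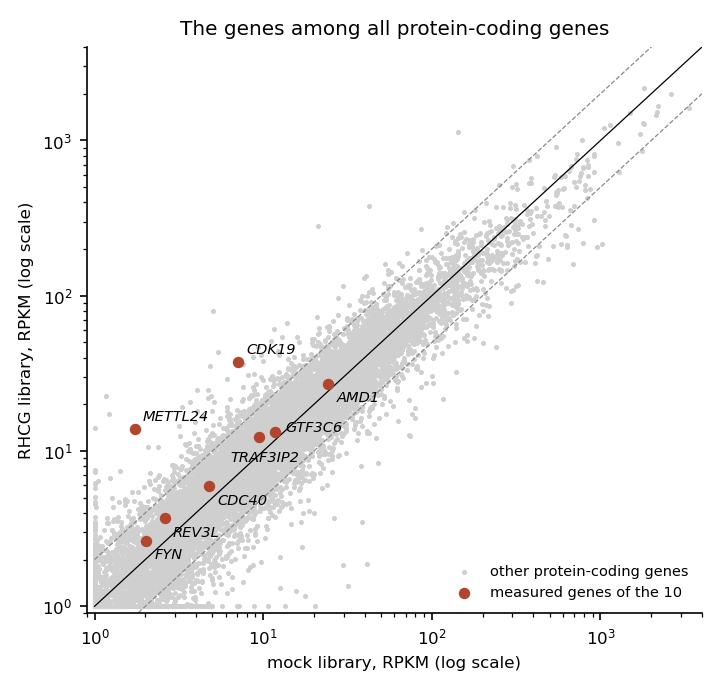
RPKM in the RHCG library (vertical) against the mock library (horizontal), both on log scales, for all measured protein-coding genes other than RHCG, with genes listed at 0 drawn at 1 RPKM. The solid line marks equal values and dashed lines 2-fold; CDK19 and METTL24 lie above the upper dashed line and the other 6 measured genes lie just above the solid line.

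All 9 measured protein-coding genes from CDC40 to FYN had a ratio above 0, beside 49.2% of all measured protein-coding genes and 48.7% on chromosome 6. CDK19 and METTL24, which chose the stretch, are among the 9, so the count is a description. Without CDK19 and METTL24 the other 7 ran between 0.15 and 0.38 with a median of 0.26. The 13 measured genes in the 20 before CDC40 had a median of 0.16, with 9 above 0 and 4 below, and ranged between −0.29 and 0.53. The 10 measured genes in the 20 after FYN had a median of −0.27, with 4 above 0 and 6 below, but the median was −0.03 over those that averaged 5 RPKM or more and 0.21 over the measured genes of the 40 after FYN. Over chromosome 6 the median was −0.01, as it was over all 12857 genes measured. The low positive ratios of CDC40, AMD1, GTF3C6, REV3L, TRAF3IP2 and FYN lay within the range of the genes before the locus. Its upper end, 0.53, was SEC63 alone, at 2.93 RPKM in the RHCG library and 1.72 RPKM in the mock library. The next highest was FOXO3 at 0.29, below REV3L (0.38) and TRAF3IP2 (0.35). The median over the 8 measured genes of the 10 was 0.31 with CDK19 and METTL24 included.

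The unbroken run of measured genes above 0 around the pair held 10 genes, from CDC40 to TUBE1. It was bounded on one side by WASF1, a regulator of actin branching, at 4.88 RPKM in the RHCG library and 5.24 RPKM in the mock library (log2 ratio −0.09). On the other side it ended at FAM229B, at 2.32 RPKM in the RHCG library and 3.72 RPKM in the mock library (log2 ratio −0.51). The other measured genes nearest to CDC40 were FIG4, a phosphoinositide phosphatase, with a log2 ratio of 0.24, and ZBTB24, a zinc finger protein, with −0.11. Beyond FAM229B came MARCKS, an actin-binding protein kinase C substrate, at 23.4 RPKM in the RHCG library and 37.4 RPKM in the mock library (log2 ratio −0.65).

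Beyond FYN, 1 more gene was called higher, with CCN6, listed at 0 in both libraries, in between. TUBE1, epsilon tubulin of the centrosome, was at 18.1 RPKM in the RHCG library and 6.12 RPKM in the mock library, a 2.96-fold difference with a counting interval of 2.74 to 3.21 (log2 ratio 1.42). It was the 1 gene called higher among the 23 measured in both flanks, and 0 were called lower. TUBE1 was separated from CDK19 by 6 measured genes that lay between 0.15 and 0.38. Its neighbour FAM229B starts on the opposite strand, and the step between their ratios was 1.93. Among the measured intervening and flanking genes alone, TUBE1 had the ratio nearest to that of CDK19 over the 2 libraries, 0.81 away. SEC63, a translocon component (log2 ratio 0.53, 1.71 away), and RWDD1 (0.41, 1.83 away) followed within that stretch. With 2 libraries such a likeness is a single number per gene.

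Most genes set beside the 10 by function were not called. Over 10 such lists, 2 of the 90 measured genes were called higher and 0 lower, beside 2.74% and 3.30% of all 12857 genes. The median of each list lay between −0.38 and 0.23, and that of all genes was −0.01. The highest of these medians, 0.23, rested on the 2 measured genes set beside DDO, of which DDAH1 does not act on D-amino acids.

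In the Mediator kinase module, CDK8, the paralogue of CDK19, was called higher, at 12.7 RPKM in the RHCG library and 5.09 RPKM in the mock library (2.49-fold, counting interval 2.20 to 2.83). CDK8 lies on chromosome 13, whose 182 measured protein-coding genes had a median log2 ratio of 0.50, and the part of that shift in its value was not tested. The 4 other measured subunits stayed within 2-fold. Cyclin C (CCNC), the partner of both kinases, was at 21.2 RPKM in the RHCG library and 18.1 RPKM in the mock library, and the scaffold MED12 at 11.4 and 12.4 RPKM. MED13 had a log2 ratio of 0.18 and MED13L of 0.10. CDK19 was thus above CCNC in the RHCG library and below it in the mock library.

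**Figure D4:**
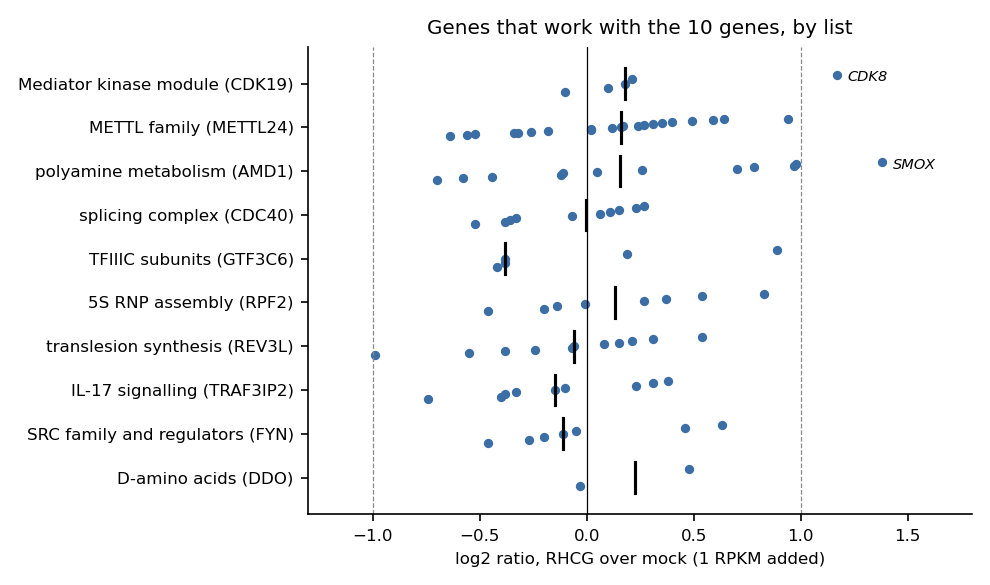
Log2 ratios of RHCG over mock (1 RPKM added) for measured genes of 10 lists, each named with the 6q21 gene it belongs to. Points are genes, black bars list medians and dashed lines the 2-fold rule; CDK8 (1.17) and SMOX (1.38) lie beyond the line.

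Among the 21 methyltransferase-like genes set beside METTL24, 14 lay above 0 and 7 below, none was called in either direction, and the median was 0.16. METTL8, at 3.52 RPKM in the RHCG library and 1.36 RPKM in the mock library, had a plain ratio of 2.60-fold with a counting interval wholly above 2-fold, but its log2 ratio with 1 RPKM added, 0.94, was short of the rule. The most abundant by the sum of both libraries, METTL26 and METTL23, were at 58.0 and 27.8 RPKM in the RHCG library and at 57.2 and 22.3 RPKM in the mock library. In the polyamine list, to which AMD1 belongs by function, SMOX, the spermine oxidase, was called higher at 52.4 RPKM in the RHCG library and 19.5 RPKM in the mock library (log2 ratio 1.38). The rate-setting enzyme ornithine decarboxylase (ODC1), at 209 and 106 RPKM in the RHCG and mock libraries, and the spermidine acetyltransferase SAT1, at 127 and 63.7 RPKM, had log2 ratios of 0.97 and 0.98, just short of the rule. The median of the 12 polyamine genes was 0.16, with 7 above 0 and 5 below, and AMD1 itself was at 0.16.

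No gene of the remaining lists was called. The 11 translesion synthesis genes had a median of −0.06, and the replication clamp PCNA, at 39.0 RPKM in the RHCG library and 78.6 RPKM in the mock library (log2 ratio −0.99), stood just inside the rule. The polymerase zeta partner MAD2L2 was at 41.4 and 39.2 RPKM in the RHCG and mock libraries. The 5 other TFIIIC subunits had a median of −0.38, with 2 above 0 and 3 below. GTF3C5 was at 54.1 and 70.8 RPKM and GTF3C2 at 46.4 and 40.6 RPKM in the same libraries. GTF3C3, at 30.9 RPKM in the RHCG library and 16.2 RPKM in the mock library, had a log2 ratio of 0.89, short of the rule.

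The 8 genes of 5S ribonucleoprotein loading had a median of 0.13, and RPL11 and RPL5 were at 546 and 410 RPKM in the RHCG library and at 751 and 472 RPKM in the mock library. The 10 splicing genes set beside CDC40 had a median of −0.01, with PRPF19 at 74.4 and 94.1 RPKM and DHX8 at 27.6 and 28.9 RPKM in the RHCG and mock libraries. The 9 measured IL-17 signalling genes had a median of −0.15, and TRAF2 was at 33.8 and 42.7 RPKM and TRAF3 at 10.9 and 8.63 RPKM in the same order of libraries. In the SRC family list the median of 7 measured genes was −0.11, with the inhibitory kinase CSK at 34.6 and 37.5 RPKM and the phosphatase PTPN1 at 30.6 and 37.1 RPKM in the RHCG and mock libraries. Of the 5 genes set beside DDO, 2 were measured, serine racemase (SRR) at 7.58 and 7.76 RPKM and DDAH1, a methylarginine hydrolase, at 16.0 and 11.2 RPKM in the RHCG and mock libraries.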

How the data were processed

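Ribosomal RNA-depleted total RNA was sequenced from 2 barcoded Ion Torrent libraries, 1 per group, per the labels' protocols. The submitters' processing notes name build hg19 and bedtools 2.25.0; the aligner, the counting rule and the transcript lengths used are not stated in the labels or headers. Each library has a table whose column the authors headed RPKM; the deposited values are log2 of RPKM without a pseudocount, with none below 0. The 40448 rows, 112 with a copy suffix, were unlogged and summed to 40392 Entrez genes, of which 94.2% matched a RefSeq symbol. Genes listed at 0 were set to 1 RPKM, 1 RPKM was added, and ratios were taken for the 12857 genes above 0 in either library, with the deposited scaling. The design assumed RPKM or its log, and no test was possible with 1 library per group.

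The members, lists and rules were chosen with earlier results of these data known. Named were the 10 genes, protein-coding genes between them, called and nearest flanking genes, the 3 most like CDK19, and up to 4 called, or else the 2 most abundant, genes of each list. CCNC, MED12, MED13, MED13L, ODC1, SAT1, MAD2L2, METTL8, CCN6, KRT14, CDH1, DSG3 and the markers listed at 0 were added after their values were seen. So were FOXO3 and GTF3C3. Gene order and promoters came from RefSeq (GRCh38.p14) and lengths, strand and exons from GENCODE 29. Depth was recovered from the step between values times length in small RNA genes (45.3 in RHCG, 52.8 in mock). The step rested on 6 recurring values in the RHCG library and on only 3 in the mock library. The method was checked on simulated data built with the same gene lengths, so the check does not cover other lengths the authors may have used. Approximate reads were RPKM times the merged length of all annotated exons times depth. This length was 1774 bases for METTL24 and 7411 for FYN, against 1119 and 3628 in their longest transcripts. Reads may thus be fewer, and intervals wider, than given. The reads gave exact (Poisson and Clopper-Pearson) 95% intervals, which cover counting error only. Sequence matches were sought with blastn 2.17.0. Other steps ran in Python 3.11.15 with scipy 1.17.1, pandas 2.3.3, numpy 2.4.6 and statsmodels 0.14.6, and figures were drawn with matplotlib 3.10.9.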

Additional observations from a re-analysis of the deposited data

How the results depend on the processing

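No paired analysis was possible because each group held 1 library, so leaving one out could not be tried either. Over all settings tried, CDK19 and METTL24 were the genes of the 10 called higher (2 each time) and 0 were called lower. The log2 ratio of CDK19 ran between 2.15 and 2.37, that of METTL24 between 2.43 and 2.94 (the highest with a pseudocount of 0.1 RPKM), and that of TUBE1 between 1.24 and 1.55. Removing a trend with GC content and length put AMD1 at 0.01 and REV3L at 0.24. Either other scaling took about 0.01 off all ratios. With rounding, the trimmed mean scaling put METTL24 at 2.43 and CDK19 at 2.22, against 2.45 and 2.24 in the main setting. The median of the 20 genes after FYN, −0.27, was 0.00 with no filter, −0.03 with a mean of at least 5 RPKM, −0.42 over 10 genes and 0.21 over 40, so it depends on the stretch taken; the run above 0 was 3 genes long with no filter, because genes listed at 0 then count as unchanged. Partner genes called lower were 0 in the main setting. They were 1 with the 0.1 RPKM pseudocount, either other scaling or the GC and length trend removed. They were 2 when listed zeros were kept at 0 RPKM and 4 with a 1.5-fold rule. Partner genes called higher were 2 in the main setting and 12 with the 1.5-fold rule. With the 0.1 RPKM pseudocount or the GC and length trend removed they were 3. Of 169 values of single genes and lists, 157 moved by no more than counting error, 12 moved by more and 0 changed the sign of a call. The filters and the handling of listed zeros cannot change the ratio of a single gene measured in both libraries. Part of the 157 could thus not have moved, and the tally is no measure of stability. Depth limits METTL24 most, with about 58 reads in the mock library.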
